A study of Mus musculus with 10 samples.

Results

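The 7 genes described here encode enzymes that handle branched-chain amino acids (Bcat1 and Bcat2), make cysteine from homocysteine (Cbs and Cth, the transsulfuration pathway), or make arginine and break down ornithine (Ass1, Asl and Oat). They were chosen by name, and their levels were read from the 11 gene probes of the array whose RefSeq accession maps to them, out of 19752 gene symbols that the probes carry. RNA was measured on 10 Agilent one-colour mouse arrays in 5 groups of 2. The first group was muscle of male C57BL/6J hSA::Fv2E-PERK transgenic mice collected 12 h after an intraperitoneal injection of AP20187 at 1 ng/g. The second was muscle of transgenic mice of the same sex and background 12 h after vehicle, and the third was muscle of male C57BL/6J wild type mice that received no injection. The remaining groups were C2C12 cells carrying Fv2E-PERK, differentiated for 3 days in 2% horse serum and given 100 nM AP20187 or ethanol vehicle for 12 h. Fv2E-PERK joins the stress kinase PERK to a binding domain through which the small molecule AP20187 brings copies together, and a human skeletal actin (hSA) promoter drives it in the mice. C2C12 is a mouse myoblast line that fuses into myotubes in low serum. Both C2C12 groups carry the fusion, both transgenic groups carry the transgene, and no wild type muscle given AP20187 or vehicle was analysed. The ages of the mice, the muscle that was taken, whether animals were pooled and whether the C2C12 cells were 1 clone are not given in the sources used here.

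PERK phosphorylates the translation initiation factor eIF2alpha, which slows most protein synthesis and raises translation of the transcription factor ATF4. This integrated stress response (ISR) is known for turning on genes of amino acid uptake and synthesis, Cth among them, and the series was titled for ISR targets in muscle. Skeletal muscle is known as a main site of the first step of branched-chain amino acid breakdown, the transfer of the amino group by the mitochondrial enzyme Bcat2, whereas the cytosolic Bcat1 is known from brain, embryonic and growing cells. Transsulfuration and the urea cycle are known best from liver.

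Cth lies on chromosome 3 at 157894248 to 157925081, Cbs on chromosome 17 at 31612623 to 31637233, Bcat1 on chromosome 6 at 144993835 to 145076157 and Bcat2 on chromosome 7 at 45568967 to 45589710 (GRCm38.p6 coordinates from RefSeq). Ass1 lies on chromosome 2 at 31470270 to 31520670, Asl on chromosome 5 at 130011258 to 130024381 and Oat on chromosome 7 at 132557475 to 132576398. Bcat1 has 3 probes, Cth and Ass1 have 2 each, and the other 4 genes have 1 each. The positions of the probes within the transcripts were not analysed here.

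The 250 bases before the start were read for the 5 genes that the RefSeq promoter table holds under the build GRCm38.p6, in 7 windows, because genes of the ISR are known to carry a composite C/EBP-ATF element. Cth and Asl are named only. The core TGATGNAA, searched on both strands, was in 0 of the 7 windows, and 3.45% of all 32851 promoter windows of the same length hold it. The palindrome CACGTG (an E-box) was in 2 of the 7 windows, those of Ass1 and Cbs, and 6.02% of all windows hold it. It starts 36 bases before the start of Ass1 and 229 bases before the start of Cbs, and it overlaps no TGATGNAA. Starts are those of the promoter table, and its start for Cbs, like its starts for Bcat2 and the second for Bcat1, lies inside the span given above for the gene. These 2 windows are shown with the E-box in capitals, and the windows of the 2 annotated Bcat1 starts are shown because Bcat1 separated muscle from C2C12 most widely. They hold neither motif.
Ass1, chr2:31470020-31470269, plus strand: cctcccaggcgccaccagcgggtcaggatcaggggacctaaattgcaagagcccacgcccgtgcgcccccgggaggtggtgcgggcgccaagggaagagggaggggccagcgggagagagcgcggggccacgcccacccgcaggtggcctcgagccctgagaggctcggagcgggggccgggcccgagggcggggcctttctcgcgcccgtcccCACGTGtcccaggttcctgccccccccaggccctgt
Cbs, chr17:31637206-31637455, minus strand: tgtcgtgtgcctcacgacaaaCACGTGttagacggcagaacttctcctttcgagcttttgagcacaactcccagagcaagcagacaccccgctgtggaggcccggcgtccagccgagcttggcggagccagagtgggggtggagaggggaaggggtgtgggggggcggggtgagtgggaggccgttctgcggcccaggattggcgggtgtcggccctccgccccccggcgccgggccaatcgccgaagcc
Bcat1, first start, chr6:145076158-145076407, minus strand: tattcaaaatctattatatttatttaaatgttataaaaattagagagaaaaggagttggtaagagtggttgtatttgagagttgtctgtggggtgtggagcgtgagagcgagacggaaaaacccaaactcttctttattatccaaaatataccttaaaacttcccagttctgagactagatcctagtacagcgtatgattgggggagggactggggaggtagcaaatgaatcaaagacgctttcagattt
Bcat1, second start, chr6:145048813-145049062, minus strand: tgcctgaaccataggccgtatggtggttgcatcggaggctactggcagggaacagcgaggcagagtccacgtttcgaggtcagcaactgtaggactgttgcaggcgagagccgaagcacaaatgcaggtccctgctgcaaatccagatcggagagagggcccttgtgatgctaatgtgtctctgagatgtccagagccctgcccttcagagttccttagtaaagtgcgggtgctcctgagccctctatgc
A match describes the letters of these windows and is no evidence of binding, and a window without a match says nothing about the factor. The Ass1 and Cbs windows were 75.6% and 68.0% G and C, and the Bcat1 windows 37.6% and 56.4%.

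Levels are given as log2 of the background-subtracted spot intensity minus the 75th percentile of the gene spots on that array, so that 0 is that percentile and a step of 1 is a doubling. Between 41.0% and 53.1% of the gene spots on an array were well above background, 0 spots were saturated, and outlier flags took 0.16% to 2.37% of gene spots, with the highest shares on the C2C12 AP20187 arrays. Each of the 12 skeletal muscle markers was well above background on at least 1 array of every group. The probe for Eif2ak3, the gene of PERK, read -1.13 and -0.92 in AP20187 transgenic muscle, -1.23 and -0.99 in vehicle transgenic muscle and -1.35 and -1.27 in wild type muscle, and whether it detects the RNA of the transgene was not tested. The wild type, transgenic and C2C12 arrays were scanned in 3 separate sessions, so genotype, injection, slide and scan session cannot be told apart between transgenic and wild type muscle. In C2C12, AP20187 and vehicle arrays lie in different rows of the slide, and row and treatment cannot be told apart there. The headers give the C2C12 and transgenic arrays the same slide, and 2 positions on it occur in both scan sessions, so slide and row are used only as the headers state them. Nothing in the labels says that the 2 arrays of a group came from separate animals or cultures, so p-values measure only the spread between these samples. In bulk muscle RNA, fewer cells of a type and less RNA per cell cannot be told apart.

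AP20187 in transgenic muscle was followed by a higher level of 1 of the 7 genes, Cth, and a lower level of 1, Asl. Bcat1, Bcat2, Cbs, Ass1 and Oat did not pass the test. In this comparison 29.3% of 13543 genes passed (limma, Benjamini-Hochberg adjusted p under 0.05 over all genes tested), 14.3% of all tested upward and 15.0% downward, so that 2 of 7 is a share near that of all genes. The AP20187 and vehicle arrays did not overlap for 3 of the 7 genes, against 68.4% of the genes with a value on all 4 arrays. The median log2 change of the 7 genes was -0.05, and that of all genes tested was -0.11. In transgenic vehicle muscle against wild type muscle, Cth and Asl were both higher and none of the 7 was lower, while 38.3% of 13543 genes passed the test, 25.7% upward and 12.6% downward. In C2C12, 6 of the 7 genes could be tested with AP20187 and 1 was higher, again Cth, where only 0.482% of 11409 genes passed, 0.316% upward and 0.167% downward. That split moved widely between settings, with 36 genes higher and 19 lower as analysed, 4590 and 72 under quantile normalization and 37 and 89 with the mean over probes.

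**Figure D1:**
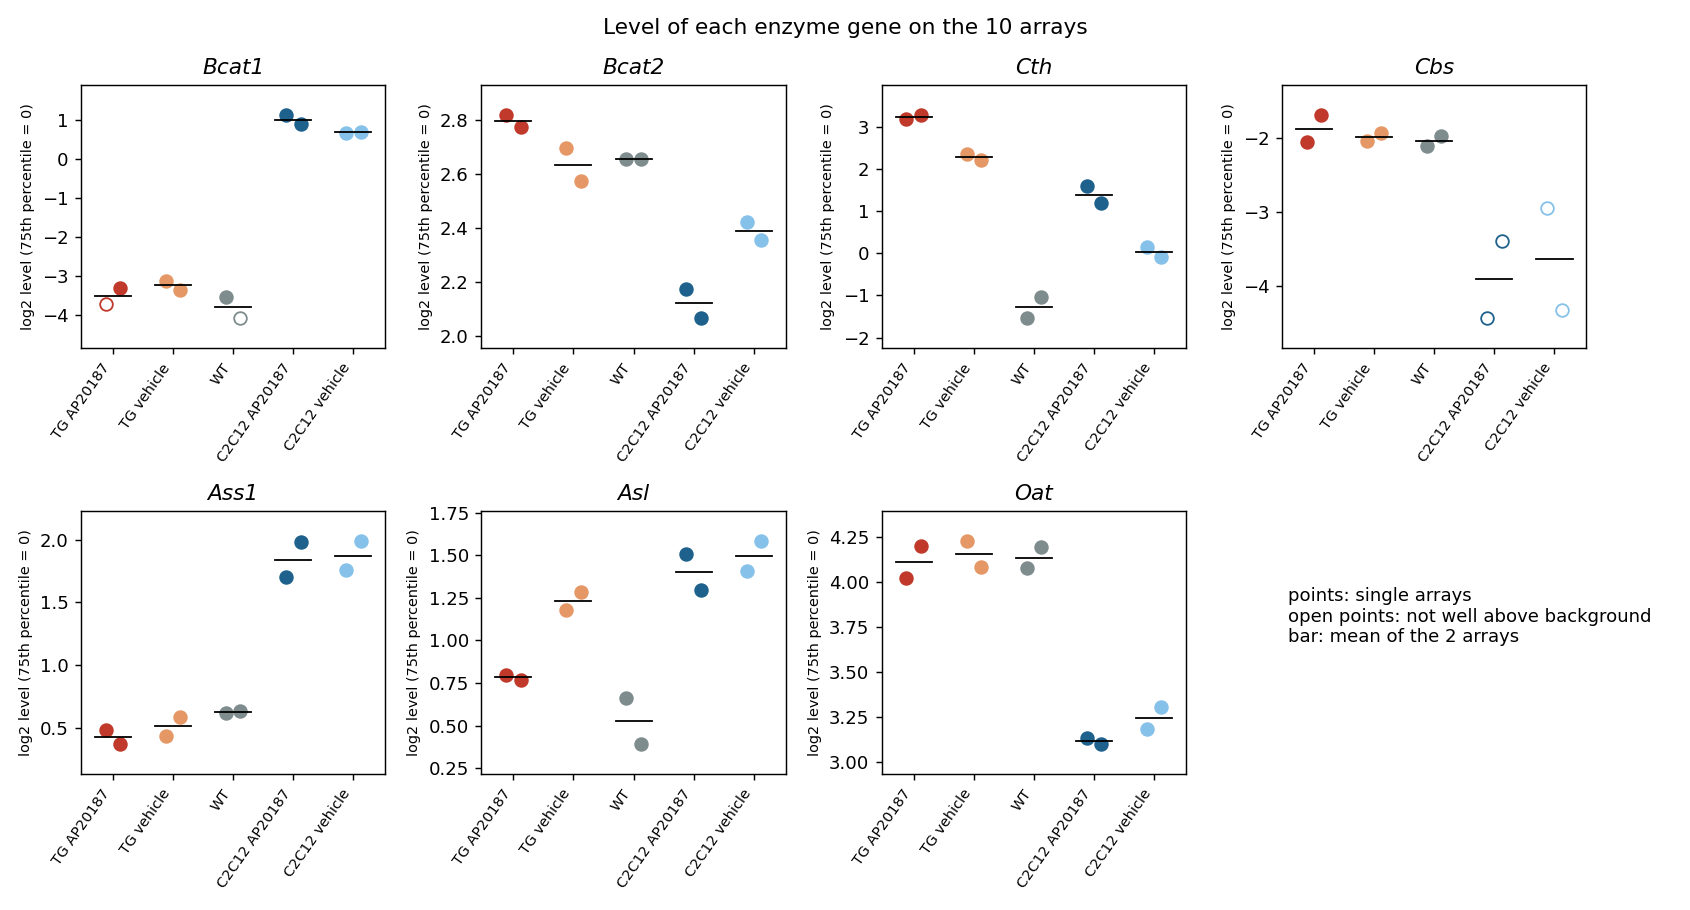
Level of each gene (log2, set to 0 at each array's 75th percentile) on single arrays of the 5 groups, with the mean as a bar and open points for arrays on which the probe was not well above background. Cth has means of 3.23 in AP20187 transgenic muscle, 2.27 in vehicle transgenic muscle and -1.29 in wild type muscle, whereas Oat stays between 4.02 and 4.23 on all 6 muscle arrays.

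Cth encodes cystathionine gamma-lyase, which splits cystathionine to release cysteine and can also make hydrogen sulfide. Its level was 3.19 and 3.27 in AP20187 transgenic muscle, 2.34 and 2.20 in vehicle transgenic muscle, and -1.54 and -1.04 in wild type muscle. In C2C12 it was 1.59 and 1.18 with AP20187 and 0.13 and -0.08 with vehicle. From the highest mean to the lowest, the groups ran AP20187 transgenic muscle, vehicle transgenic muscle, AP20187 C2C12, vehicle C2C12 and wild type muscle, and no neighbouring groups in this order overlapped.

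With AP20187, Cth rose by a log2 change of 0.96 (SE 0.16, 95% interval 0.58 to 1.34) in transgenic muscle, which is 1.94-fold (adjusted p = 0.00601). It stood at place 569 among the 13543 changes ordered from the highest rise. The second Cth probe read 3.04 on both AP20187 arrays, against 2.13 and 2.02 on the vehicle arrays, a change of 0.96 (SE 0.13, adjusted p = 0.00244 over all probes). Both probes thus gave the same change to 2 decimals. The change passed the test under all 20 other settings tried, at 0.88 to 1.03.

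The difference between vehicle transgenic muscle and wild type muscle was wider. Cth was 11.8-fold higher in vehicle transgenic muscle (log2 change 3.56, SE 0.16, 95% interval 3.18 to 3.94, adjusted p = 1.4e-05), place 35 among 13543 changes, and with normexp background correction the log2 change was 2.72. The second probe, at 2.13 and 2.02 in vehicle transgenic muscle and -1.51 and -1.17 in wild type muscle, gave 3.41 (SE 0.13, adjusted p = 3.16e-06). AP20187 transgenic muscle stood 22.9-fold above wild type muscle (log2 change 4.51, SE 0.16, adjusted p = 1.67e-06, and 3.70 with normexp background correction), a comparison that shares its arrays with the other muscle comparisons. In that comparison 52.2% of genes passed the test, 29.6% upward and 22.7% downward, and Cth was the only 1 of the 7 that did.

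In C2C12, Cth rose with AP20187 by a log2 change of 1.36 (SE 0.17, 95% interval 0.99 to 1.72), or 2.56-fold (adjusted p = 0.00297). This was place 118 of 11409 among the rises and place 17 by p. The second probe read 1.61 and 1.60 with AP20187 and 0.18 and 0.20 with vehicle, a change of 1.41 (SE 0.14, adjusted p = 0.000275). For the probe that stands for the gene, the test was no longer passed without the second vehicle array (1.25, adjusted p = 0.142), without a variance trend (adjusted p = 0.094) and on the authors' deposited table (1.34, adjusted p = 0.101). The AP20187 change of Cth in muscle minus that in C2C12 was -0.40 (SE 0.26, 95% interval -0.98 to 0.18, adjusted p = 0.338), which does not show that the changes were alike.

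Cbs encodes cystathionine beta-synthase, the step before Cth, which joins homocysteine and serine. It was dim but well above background on every muscle array, at -2.05 and -1.69 in AP20187 transgenic muscle, -2.04 and -1.93 in vehicle transgenic muscle and -2.10 and -1.98 in wild type muscle. The 3 muscle groups overlapped. The log2 change with AP20187 was 0.11 (95% interval -0.35 to 0.58, adjusted p = 0.686), and that of vehicle transgenic over wild type muscle was 0.05 (95% interval -0.41 to 0.52, adjusted p = 0.849). On the C2C12 arrays Cbs was not well above background, and it was not tested there.

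**Figure D2:**
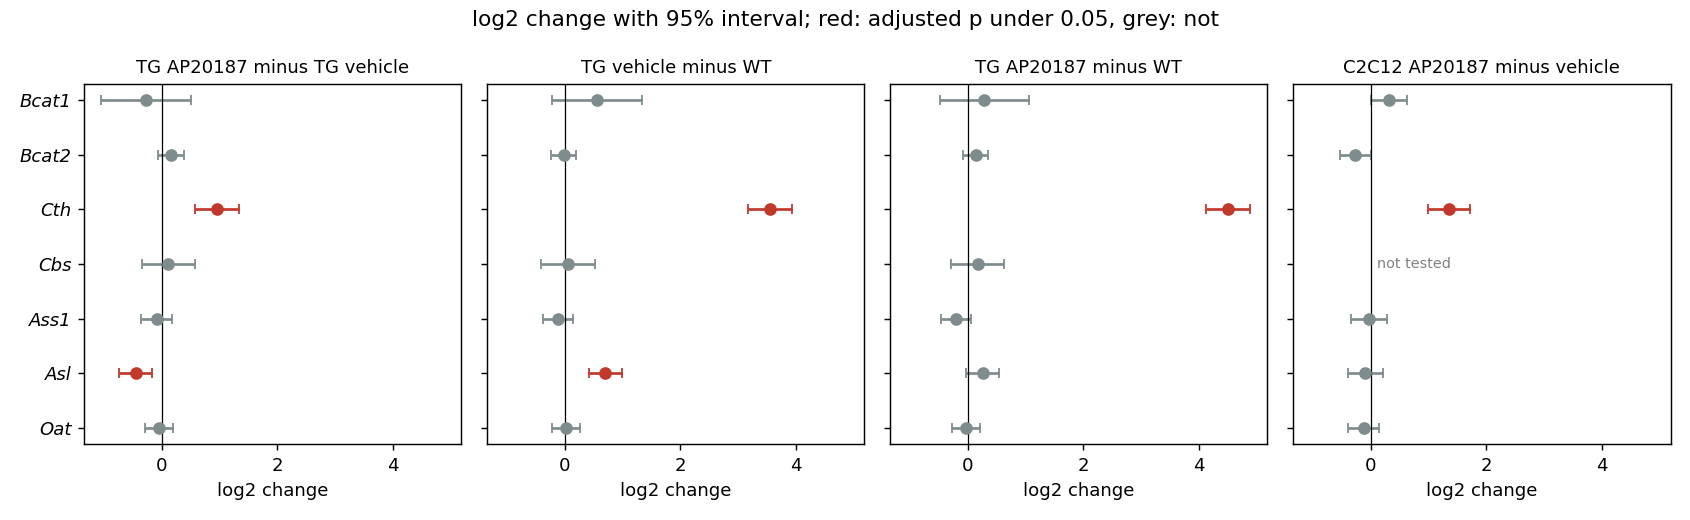
Log2 change of each gene with its 95% interval in 4 comparisons, each named as first group minus second, in red where the adjusted p is under 0.05. Cth lies at 0.96, 3.56, 4.51 and 1.36, and Asl is the other gene in red, at -0.45 with AP20187 in transgenic muscle and at 0.70 in vehicle transgenic over wild type muscle.

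Asl encodes argininosuccinate lyase, which releases arginine and fumarate, and Ass1 encodes argininosuccinate synthase, which makes its substrate from citrulline and aspartate. Asl was 0.80 and 0.77 in AP20187 transgenic muscle, 1.18 and 1.29 in vehicle transgenic muscle and 0.66 and 0.39 in wild type muscle. In C2C12 it was 1.51 and 1.30 with AP20187 and 1.41 and 1.58 with vehicle. The vehicle transgenic arrays were the highest muscle arrays and the wild type arrays the lowest, with no overlap among the 3 muscle groups, while the C2C12 groups overlapped each other.

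Asl was 1.63-fold higher in vehicle transgenic muscle than in wild type muscle (log2 change 0.70, SE 0.12, 95% interval 0.42 to 0.99, adjusted p = 0.00396), and this passed the test under all 19 other settings. With AP20187 it fell by 0.45 on the log2 scale in transgenic muscle (SE 0.12, 95% interval -0.74 to -0.16, adjusted p = 0.0321). That fall passed the test under 11 of 20 other settings and kept its sign under all of them (-0.50 to -0.30). The call was lost when either vehicle array (-0.50 and -0.39 without replicates 1 and 2) or either AP20187 array (-0.46 and -0.43) was left out. It was also lost with the slide row as a block (-0.39). Vehicle replicate 2 was the only muscle array in its row, so that block amounts to leaving it out and is no separate check. Against wild type muscle, AP20187 transgenic muscle had a log2 difference of 0.26 (95% interval -0.03 to 0.55, adjusted p = 0.119), which did not pass. In C2C12 the AP20187 change was -0.09 (95% interval -0.40 to 0.21, adjusted p = 0.805), and the muscle change minus the C2C12 change was -0.35 (SE 0.19, adjusted p = 0.257).

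The 2 Ass1 probes gave different records between transgenic and wild type muscle. The first probe, which stands for the gene, read 0.48 and 0.37 in AP20187 transgenic muscle, 0.43 and 0.58 in vehicle transgenic muscle and 0.62 and 0.63 in wild type muscle. On the second probe the values were -0.49 and -0.79 in AP20187 transgenic muscle, -0.71 and -0.62 in vehicle transgenic muscle and 0.60 and 0.71 in wild type muscle. All 4 transgenic arrays lay below both wild type arrays on either probe, by a small gap on the first and a wide gap on the second.

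Vehicle transgenic muscle minus wild type muscle was -0.12 on the first Ass1 probe (SE 0.11, 95% interval -0.38 to 0.15, adjusted p = 0.453) and -1.32 on the second (SE 0.14, 2.50-fold lower, adjusted p = 0.000461 over all probes). AP20187 transgenic muscle minus wild type muscle was -0.20 on the first probe (adjusted p = 0.172) and -1.30 on the second (adjusted p = 0.00023). Taking the mean of both probes, Ass1 was lower in vehicle transgenic muscle by a log2 change of -0.72 (adjusted p = 0.00475). AP20187 against vehicle moved neither probe past the test, with -0.09 (adjusted p = 0.594) and 0.02 (adjusted p = 0.91) in transgenic muscle. In C2C12 the first probe read 1.70 and 1.98 with AP20187 and 1.76 and 1.99 with vehicle, and its change was -0.03 (adjusted p = 0.944). The first probe minus the second was 0.97 to 1.21 on the 4 transgenic arrays, -0.08 and 0.01 on the wild type arrays and 0.31 to 0.49 on the C2C12 arrays, so the 2 probes changed unequally between the systems. The cause was not tested.

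**Figure D3:**
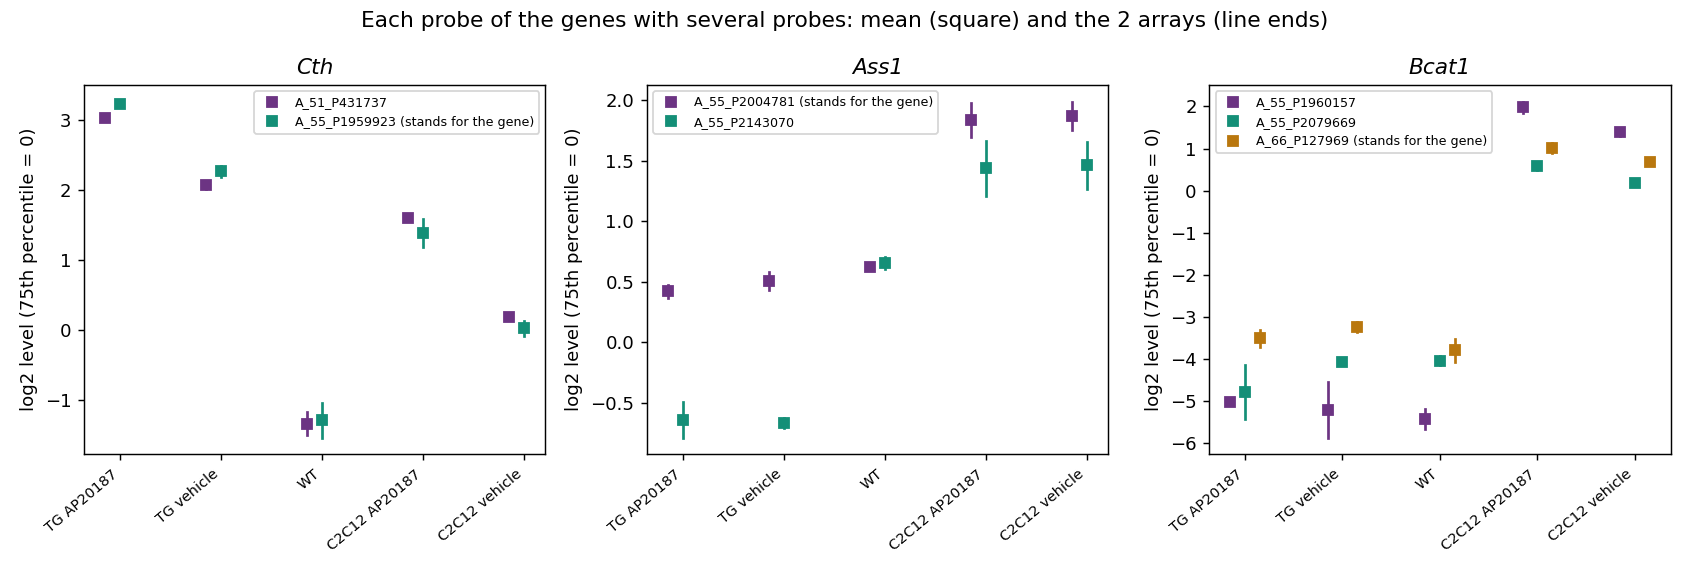
Level (log2, set to 0 at each array's 75th percentile) of each probe of Cth, Ass1 and Bcat1 in the 5 groups, with the mean as a square and the 2 arrays as line ends. The 2 Cth probes run together, the second Ass1 probe lies near -0.64 and -0.66 in the transgenic groups and at 0.66 in wild type muscle, and the 3 Bcat1 probes are all above 0 in C2C12 and below -3 in muscle.

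Oat encodes the mitochondrial ornithine aminotransferase, which links ornithine to glutamate and proline. Its level was 4.02 and 4.20 in AP20187 transgenic muscle, 4.23 and 4.09 in vehicle transgenic muscle and 4.07 and 4.19 in wild type muscle. The 3 muscle groups overlapped. The AP20187 change was -0.05 in transgenic muscle (95% interval -0.29 to 0.20, adjusted p = 0.756), and vehicle transgenic minus wild type muscle was 0.02 (95% interval -0.22 to 0.27, adjusted p = 0.89). In C2C12 Oat read 3.13 and 3.10 with AP20187 and 3.18 and 3.30 with vehicle, a change of -0.13 (95% interval -0.39 to 0.14, adjusted p = 0.673) whose sign turned with quantile normalization.

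Bcat2, the mitochondrial branched-chain aminotransferase, was bright in every group. It read 2.82 and 2.78 in AP20187 transgenic muscle, 2.70 and 2.57 in vehicle transgenic muscle and 2.66 and 2.65 in wild type muscle. In C2C12 the values were 2.18 and 2.07 with AP20187 and 2.42 and 2.36 with vehicle. The AP20187 arrays were the highest in muscle and the lowest in C2C12, without overlap with their vehicle arrays in either system.

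Neither change of Bcat2 passed the test. It was 0.16 in transgenic muscle (SE 0.09, 95% interval -0.06 to 0.38, adjusted p = 0.222) and -0.27 in C2C12 (SE 0.12, adjusted p = 0.357), where it was 0.20 with quantile normalization. The muscle change minus the C2C12 change was 0.43 (SE 0.14, 95% interval 0.13 to 0.73), with an unadjusted p of 0.00992 and an adjusted p of 0.0671 in the limma fit of all 10 arrays. Of the 7 genes, 0 passed that test of the difference, 1 had an unadjusted p under 0.05, and 12.0% of 14094 genes passed, 8.01% upward and 4.02% downward. Cbs is counted among the 7, but it was not well above background on any C2C12 array, so the C2C12 side of its difference is not measured. The muscle side of Bcat1 was at the edge of detection. With normexp background correction Bcat2 passed the test of the difference, at 0.65 (adjusted p = 0.0237), and with quantile normalization its difference was -0.02.

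Bcat1, the cytosolic branched-chain aminotransferase, was well measured in C2C12 and at the edge of detection in muscle. The probe that stands for the gene, the brightest in the mean over the 10 arrays, read -3.71 and -3.31 in AP20187 transgenic muscle, -3.12 and -3.35 in vehicle transgenic muscle and -3.52 and -4.07 in wild type muscle, and it was well above background on 4 of these 6 arrays. A second probe was not well above background on any muscle array, and the third on 1 wild type array only. No muscle comparison of Bcat1 passed the test, with log2 changes of -0.27 for AP20187 over vehicle (95% interval -1.05 to 0.50, adjusted p = 0.563) and 0.56 for vehicle transgenic over wild type (95% interval -0.21 to 1.34, adjusted p = 0.221).

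In C2C12 the Bcat1 probe that stands for the gene read 1.12 and 0.90 with AP20187 and 0.67 and 0.71 with vehicle. The second read 2.11 and 1.85 with AP20187, against 1.49 and 1.31 with vehicle, and the third read 0.66 and 0.49 with AP20187, against 0.18 and 0.16 with vehicle. On all 3 probes both AP20187 arrays were above both vehicle arrays. The log2 changes were 0.32 (SE 0.14, unadjusted p = 0.0432, adjusted p = 0.338) for the gene, and 0.58 (adjusted p = 0.1) and 0.40 (adjusted p = 0.274) for the other probes, none of which passed. With quantile normalization the change of the probe that stands for the gene was 0.71 (adjusted p = 0.00495), where the median change of all genes was 0.38, and relative to that median it was 0.33, against 0.38 with the 75th percentile. The AP20187 and vehicle arrays did not overlap for 4 of the 6 genes tested in C2C12, against 46.6% of the genes with a value on all 4 arrays, and the median change of the 6 genes was -0.06, as it was for all genes tested.

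**Figure D4:**
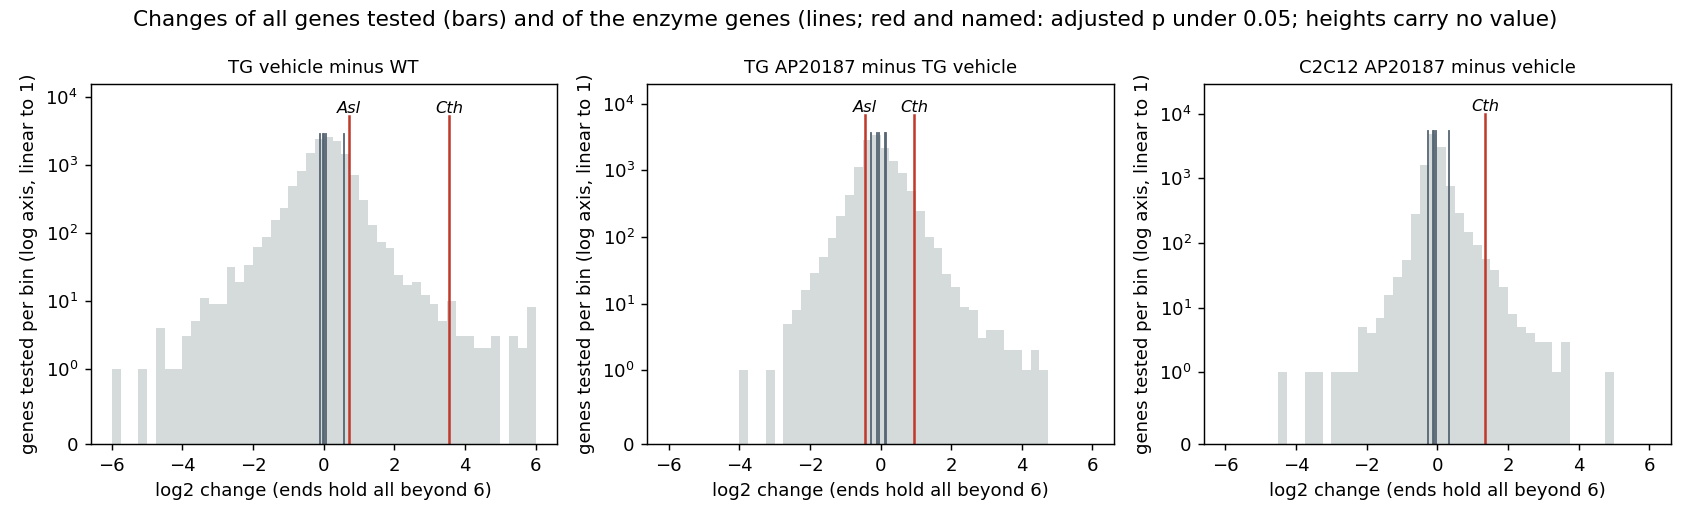
Number of genes tested (log axis) by log2 change in 3 comparisons, with vertical lines at the changes of the enzyme genes, red and named where the adjusted p is under 0.05. Cth lies far out at 3.56 in vehicle transgenic over wild type muscle and at 1.36 in C2C12, and nearer to the bulk at 0.96 with AP20187 in transgenic muscle.

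All 7 genes passed the test between wild type muscle and vehicle C2C12 cells, as did 78.8% of 14292 genes, 37.6% upward and 41.2% downward. For Cbs and Bcat1 the p-values rest in part on readings not well above background in the lower group, so the test cannot size their differences. Scan session, slide and sample type cannot be told apart here. Oat (0.89, SE 0.10, adjusted p = 1.08e-05), Bcat2 (0.27, adjusted p = 0.026) and Cbs were higher in wild type muscle. For Cbs, which was not well above background in C2C12, the difference is at least 1.49-fold on the 75th percentile scale, the signal in muscle against the lowest signal among detected probes of each C2C12 array or the probe's own where that was higher. The fit itself, on the measured values, gave 1.60 for Cbs (adjusted p = 0.00776). Bcat1 (-4.49, SE 0.25, adjusted p = 3.02e-08, with its probe well above background on 1 of the 2 wild type arrays), Cth (-1.31, adjusted p = 5.56e-05), Ass1 (-1.25, adjusted p = 8.12e-06) and Asl (-0.97, adjusted p = 5.92e-05) were lower in wild type muscle. By the second Bcat1 probe, not well above background in wild type muscle, the level there was at least 46.0-fold lower on the same scale. The fit gave 22.4-fold for the probe that stands for the gene and 18.5-fold for the third. Each of these was well above background on 1 wild type array, so 46.0-fold is no bound for the gene. With normexp background correction the log2 differences were -2.07 for Bcat1, -0.87 for Cth, -0.62 for Asl and 0.41 for Cbs, the last below the bound given for Cbs. Bcat2 did not pass with either wild type array left out (adjusted p = 0.0908 and 0.0886 without replicates 1 and 2) or without the second C2C12 vehicle array (0.0854), nor with normexp background correction (0.129) or quantile normalization (0.167), and Cbs did not pass without that C2C12 array (log2 change 0.91, adjusted p = 0.0764).

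Around these enzymes, the genes of 3 pathway lists were followed, none of which holds the 7 genes. Of 24 tested genes of branched-chain breakdown past the aminotransferases, 0 were higher and 4 lower with AP20187 in transgenic muscle, where 14.3% of all genes tested were higher and 15.0% lower (median log2 change -0.11, as for all genes). The 4 were Ppm1k, the phosphatase that activates the branched-chain keto acid dehydrogenase (-0.58, adjusted p = 0.0128), Mcee (-0.50, 0.0154), Auh (-0.39, 0.0188) and Hibadh (-0.30, 0.0488). In vehicle transgenic over wild type muscle 11 were higher and 0 lower, beside 25.7% and 12.6% of all genes (median 0.32, against 0.09 for all genes). Among them were Echs1 (0.81, adjusted p = 0.000898), Hsd17b10 (0.84, 0.000924) and Bckdhb, a subunit of that dehydrogenase (0.77, 0.00108). In AP20187 transgenic over wild type muscle 9 were higher and 2 lower, beside 29.6% and 22.7% of all genes, and Bckdha, another subunit, was higher by 0.81 (adjusted p = 0.00025). In wild type muscle over vehicle C2C12, 21 of the 24 were higher and 1 was lower, beside 37.6% and 41.2% of all genes (median 1.78, against -0.08 for all genes), with Bckdhb at 5.08 and Aldh6a1 at 3.95.

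Of 19 tested genes of methionine and sulfur metabolism, 3 were higher and 1 lower with AP20187 in transgenic muscle, beside 14.3% and 15.0% of all genes. The 3 were Gclc (1.14, adjusted p = 0.00164) and Gclm (0.50, 0.0155), the subunits of the enzyme that joins glutamate to cysteine, and Gss (0.46, 0.0315), which completes glutathione from their product. Gclc read 0.42 and 0.66 in wild type muscle, above its 0.10 and -0.02 in vehicle transgenic muscle. Gclm read -0.44 and -0.27 in wild type muscle, below its 0.67 and 0.68 in vehicle transgenic muscle. Sqor, which oxidises hydrogen sulfide in mitochondria, was lower (-0.47, adjusted p = 0.0348). In vehicle transgenic over wild type muscle 6 were higher and 4 lower, beside 25.7% and 12.6% of all genes, with Gnmt, a methyltransferase that uses S-adenosylmethionine, at 2.91 (adjusted p = 0.000147), Gclm at 1.03 (0.000605), Mat2b at 0.60 (0.00331) and Sqor at -0.72 (0.00488). The medians were -0.14 and 0.09, against -0.11 and 0.09 for all genes. In AP20187 transgenic over wild type muscle 7 were higher and 4 lower, beside 29.6% and 22.7% of all genes.

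Of 14 tested genes around arginine, urea and ornithine, 2 were higher and 2 lower with AP20187 in transgenic muscle, a share in each direction near the 14.3% and 15.0% of all genes (median -0.01). Prodh, the first enzyme of proline breakdown (0.97, adjusted p = 0.00196), and Aldh18a1, the first enzyme of proline synthesis from glutamate (0.78, 0.00475), were higher. Gamt, which makes creatine (-0.70, 0.00226), and Ddah1, which breaks down methylated arginine (-0.63, 0.0406), were lower. In vehicle transgenic over wild type muscle 3 were higher and 3 lower, beside 25.7% and 12.6% of all genes (median 0.15), among them Aldh18a1 (3.57, adjusted p = 3.32e-06), Gamt (-1.11, 0.000197) and the ornithine decarboxylase gene Odc1 (-0.83, 0.00225). In C2C12 with AP20187, 0 of 22, 0 of 16 and 0 of 12 tested genes of the 3 lists passed the limma test, and 3, 4 and 2 of them had an unadjusted p under 0.05. Only 0.482% of all 11409 genes passed there, so 0 calls in lists of this size cannot show that these genes did not change. Among all genes in that limma test, place 1454 of 11409 by p (Bcat1) had an unadjusted p of 0.0432.

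**Figure D5:**
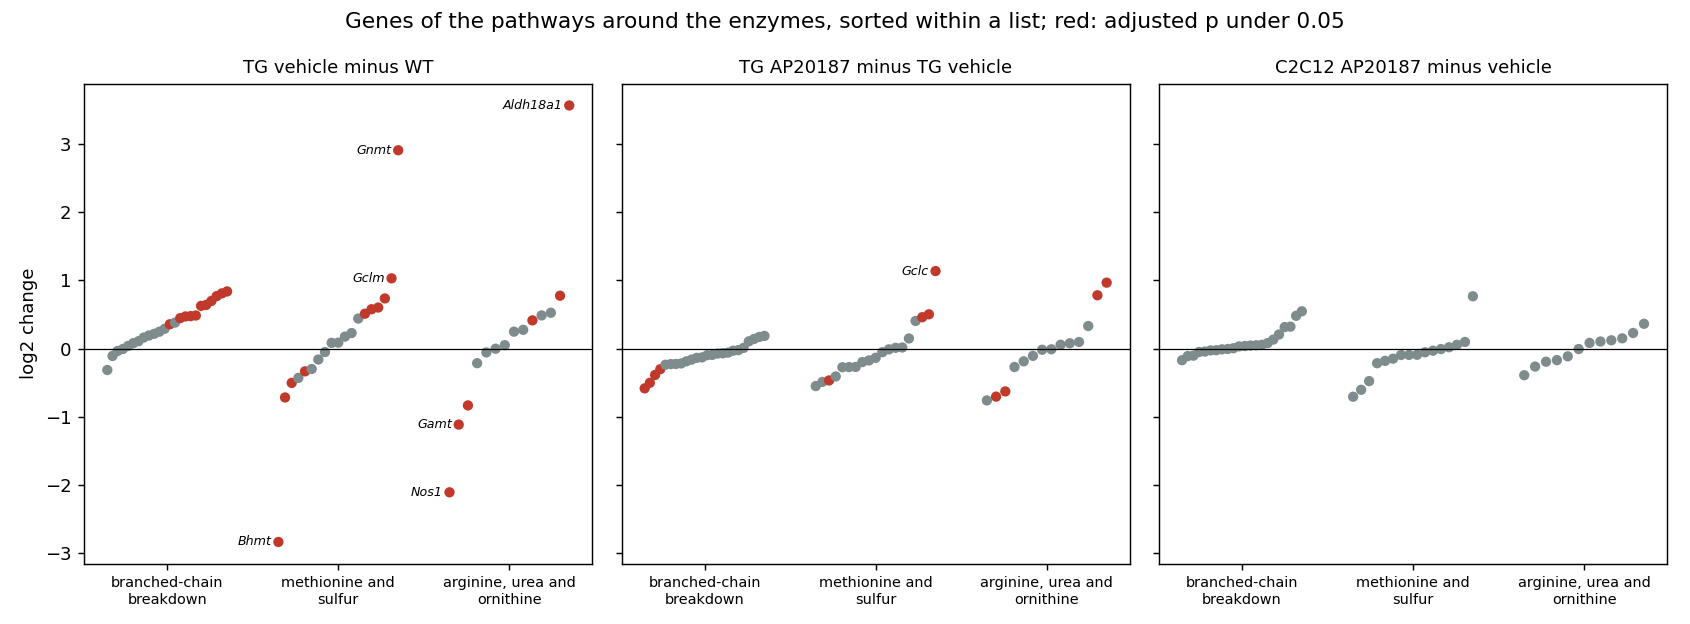
Log2 change of every tested gene of the 3 pathway lists in 3 comparisons, sorted within a list and red where the adjusted p is under 0.05. In vehicle transgenic over wild type muscle, 11 of 24 branched-chain breakdown genes are red and above 0 and Aldh18a1 (3.57) and Gnmt (2.91) stand out. No gene of the lists is red in C2C12, where only 0.482% of all genes tested passed.

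Markers of other cell types were followed in the same comparisons. Of all genes tested, 15.0% were lower and 14.3% higher with AP20187 in transgenic muscle. In vehicle transgenic over wild type muscle 12.6% were lower and 25.7% higher, and in C2C12 0.167% were lower and 0.316% higher with AP20187. The hepatocyte count with AP20187 in transgenic muscle and the adipocyte count in vehicle transgenic over wild type muscle, both given below, were near these shares. With AP20187 in transgenic muscle, 9 of 11 macrophage markers were lower and 0 higher, with sums of their linear levels relative to the 75th percentile of 20.7 to 21.1 on AP20187 arrays and 35.2 to 39.4 on vehicle arrays. In wild type muscle the sum was 42.0 to 45.1, and 3 of 11 were lower in vehicle transgenic muscle. Of the fibroblast markers 4 of 9 were lower with AP20187 and 0 higher (sums over the 6 of 9 with a value on every array 115 to 182 on AP20187 arrays and 154 to 211 on vehicle arrays), and of the hepatocyte markers 1 of 6 was lower and 0 higher (sums 14.7 to 15.9 on AP20187 arrays and 20.4 to 22.7 on vehicle arrays). Of 8 endothelial and 9 adipocyte markers 0 passed the limma test there, with 1 and 0 at an unadjusted p under 0.05, and of 12 skeletal muscle markers 2 were higher and 3 lower. The endothelial sums were 22.3 to 47.9 on AP20187 arrays and 52.4 to 54.2 on vehicle arrays. Over 10 of the 12 muscle markers they were 6290 to 7183 and 8925 to 9101, without overlap in either list. The adipocyte sums overlapped, at 266 to 400 and 344 to 448. Adipocyte markers were higher in vehicle transgenic over wild type muscle for 2 of 9 genes (sums 344 to 448 in vehicle transgenic muscle and 240.5 to 295 in wild type muscle). Hepatocyte markers were lower there for 2 of 6 (sum 24.8 to 38.9 in wild type muscle), and Apoa1 and Fgb were not well above background in either transgenic group. In C2C12, 5 of 8 adipocyte markers were higher with AP20187 (sums 10.68 to 14.2, against 2.08 to 2.52 with vehicle) and 2 of 11 muscle markers were lower. Adipoq, Cidec and Lep were not well above background in vehicle C2C12, nor was Lep with AP20187. The part of these cell types in the changes of Cth and Asl was not tested.

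For each gene the 3 genes of most like pattern were taken by Pearson r over the 10 arrays, after the muscle mean and the C2C12 mean were each set to 0. The arrays share groups, sessions and scaling, so these values describe the pattern and carry no test. For Cth they were Acox2, Gadd45a and Fut1 (each with r = 0.99, among 689 genes of sufficient spread). For Asl they were Nosip and Etfb (both 0.99) and Yif1a (0.97), among 12675 genes. For Bcat2 they were Nfkb1 (0.94), Secisbp2 (0.93) and Tollip (0.92), for Ass1 Aldh8a1 and Rtn1 (both 0.92) and Defb25 (0.91), and for Oat Ece2 (0.89), Rab3d and Greb1 (both 0.80). For Bcat1 they were Card9 (0.93), Krt2 (0.92) and Mrgprb4 (0.91), and for Cbs Med13 (0.93), As3mt (0.92) and Abi3 (0.90). Both genes include values near background. Cbs was not well above background on any C2C12 array and its muscle groups overlapped, so its matches cannot be told from spread near background. Oat varied little after this centring (SD 0.08) and its muscle groups overlapped, so its matches cannot be told from spread between replicates. Bcat2 and Ass1 also varied little (SD 0.12 for each). The probes that stand for them passed no test within muscle or within C2C12. Whether their matches differ from spread between replicates was not tested.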

How the data were processed

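Each array came as a scanner file. The spot intensity (gProcessedSignal, linear scale) in the deposited files had its background removed by Feature Extraction 10.7.1.1 of Agilent according to the headers of these files, and Cy3-labelled cRNA had been made from 150 ng of RNA, per the labels' protocols. A second table deposited by the authors held log2 values of the same arrays for 55681 matched probes. Array-to-array differences in this table and in the scanner intensities correlated at r of 0.9998 or more, so its direction is that of the scanner files. The correlation does not set the base of the logarithm. Changes were near in size to the log2 changes above, with Cth at 3.54 against 3.56 in vehicle transgenic over wild type muscle. Bcat1 was at -4.45 against -4.49 in wild type muscle over vehicle C2C12. The baseline of its centring stays unknown. Its column medians, replicate 1 before replicate 2, were -0.37 and -0.57 for AP20187 transgenic muscle, -0.42 and -0.35 for vehicle transgenic muscle, -0.46 and -0.45 for wild type muscle, 0.80 and 0.77 for C2C12 with AP20187, and 0.34 and 0.70 for C2C12 with vehicle. It served as an alternative.

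Control spots (3671 of 62976) and outlier-flagged spots were left out, log2 intensities were set relative to the 75th percentile of the 59305 gene spots of each array, and spots of a probe were averaged. RefSeq accessions named 26056 of 55681 probes with 1 symbol each, none with several, and 29625 stayed unnamed. The brightest probe over the 10 arrays, among those with a value on every array where there was one, stood for a gene. A gene entered a fit when both arrays of 1 or more of its groups had that probe well above background. Testing was done with limma 3.58.1 under R 4.3.3 (lmFit, eBayes with trend, Benjamini-Hochberg over all genes tested, called at an adjusted p under 0.05). The fits held the 6 muscle arrays (3 residual degrees of freedom), the 4 C2C12 arrays (2) or all 10 arrays (5, for the muscle minus C2C12 difference and for wild type muscle against vehicle C2C12). The fit was tested on simulated data. Of each pathway list, the text names up to 4 genes with the smallest p among those called in a comparison. Some of these genes are not reported here. The genes and lists were chosen with earlier results of these data known, and no list test was run. Probe tests were adjusted over all probes. Alternatives were normexp background correction (on the median and background signals, as the mean signal was not used here), quantile normalization, other filters and percentiles, the mean over probes, no variance trend, the deposited table, a replicate block, the slide row as a block and leaving out each array. The number of arrays limits the precision.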

Additional observations from a re-analysis of the deposited data

Results flagged for a closer look

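In the lists of branched-chain breakdown, of methionine and sulfur and of arginine, urea and ornithine, 2 of 23, 3 of 19 and 1 of 14 tested genes had an AP20187 change in muscle that differed from the one in C2C12 by the limma test of the difference over all 10 arrays, and 12.0% of all 14094 genes tested did. The calls of these listed genes were not checked under the other settings. The number and split of all such calls moved widely between settings, as given below. Gclc, a subunit of the enzyme that joins glutamate to cysteine, had a difference of 1.19 (adjusted p = 0.00467). It read 1.07 and 1.28 in AP20187 transgenic muscle and 0.10 and -0.02 in vehicle transgenic muscle, and in C2C12 1.42 and 1.58 with AP20187 and 1.60 and 1.50 with vehicle. Gss, the glutathione synthetase gene, had a difference of 0.64 (adjusted p = 0.0431), with 0.60 and 0.50 in AP20187 transgenic muscle, 0.09 and 0.08 in vehicle transgenic muscle, 1.77 and 1.85 in C2C12 with AP20187 and 1.94 and 2.04 in C2C12 with vehicle. Prodh had a difference of 0.85 (adjusted p = 0.0213), with 2.14 and 2.07 in AP20187 transgenic muscle, 1.15 and 1.12 in vehicle transgenic muscle, -1.25 and -1.15 in C2C12 with AP20187 and -1.28 and -1.36 in C2C12 with vehicle.

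Mcee, which acts late in the breakdown of valine and isoleucine, had a difference of -0.82 (adjusted p = 0.0116). It read 2.71 and 2.89 in AP20187 transgenic muscle, 3.22 and 3.39 in vehicle transgenic muscle, 0.19 and 0.11 in C2C12 with AP20187 and -0.12 and -0.21 in C2C12 with vehicle. Dld, a subunit shared by several dehydrogenase complexes, had a difference of -0.64 (adjusted p = 0.0297). It read 4.48 and 4.70 in AP20187 transgenic muscle, 4.73 and 4.77 in vehicle transgenic muscle, 3.07 on both AP20187 C2C12 arrays and 2.71 and 2.47 in C2C12 with vehicle, and its own change passed the test in neither system. Cdo1, the cysteine dioxygenase gene, had a difference of -2.87 (adjusted p = 0.0256), but its probe was not well above background on any of the 4 C2C12 arrays, where it read -2.02 and -2.85 with AP20187 and -5.18 and -4.32 with vehicle, so the C2C12 side of that value is not measured.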

How the results depend on the processing

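Over the 7 genes, 6 comparisons and all alternatives, 761 of 788 results kept their call with its sign, or their lack of a call. Another 18 lost a call, and 7 gained one with the sign they had as analysed. A further 2, not called as analysed, gained a call of the opposite sign. The 2 were Ass1 (0.40, adjusted p = 0.0469) and Oat (0.47, 0.017) with AP20187 in C2C12 under quantile normalization, which moved the median change of all genes to 0.38 there, against -0.06 with the 75th percentile; relative to the median they were 0.03 and 0.09 under quantile normalization, against 0.02 and -0.07. In transgenic muscle that scaling moved the median to -0.01, against -0.11. Genes called of the 7 with AP20187 in transgenic muscle numbered 1 in place of 2 under normexp, no filter on dim probes, no variance trend, the deposited table and the slide row block, and 1 to 2 over left-out arrays. In C2C12 they numbered 4 under quantile normalization, 0 without a trend and on the deposited table, and 0 to 1 over left-out arrays. For the difference between muscle and C2C12 they numbered 2 under normexp (Bcat1, Bcat2) and 1 under quantile normalization (Asl), and for AP20187 transgenic over wild type muscle 2 with the percentile over detected probes, the mean over probes and each probe on its own, an alternative added after seeing the data.

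Of all genes, AP20187 in transgenic muscle called 3964, and 1795 with the slide row block and 1872 to 3273 over left-out arrays (1872 without vehicle replicate 2, and 2326 and 2582 without AP20187 replicates 1 and 2). Vehicle transgenic over wild type muscle called 5186, and 3148 to 5199 over left-out arrays (3148 and 3397 without wild type replicates 1 and 2, 3345 without vehicle replicate 2). In C2C12 the count was 55, against 387 under normexp, 4662 under quantile normalization, 137 without a filter, 35 with a filter on every array, 126 with the mean over probes, 31 without a trend, 21 on the deposited table, 139 with all 10 arrays in the fit, 218 with the percentile taken without outlier-flagged spots (added after seeing the data) and 16 to 238 over left-out arrays (106 and 204 without AP20187 replicates 1 and 2, 238 and 16 without vehicle replicates 1 and 2). The difference between muscle and C2C12 called 1695, against 3388 under normexp, 3862 under quantile normalization and 933 to 1676 over left-out arrays (978 and 1103 without transgenic AP20187 replicates 1 and 2, 933 without transgenic vehicle replicate 2, 1039 without C2C12 AP20187 replicate 1). Higher and lower calls stood at 1937 and 2027 for AP20187 in transgenic muscle, against 2073 and 1201 under quantile normalization; at 3479 and 1707 for vehicle transgenic over wild type, against 2603 and 2323 under quantile normalization and 2322 and 2617 with the percentile over detected probes; and at 1129 and 566 for the difference, against 586 and 3276 under quantile normalization, 1369 and 2019 under normexp and 724 and 1641 without outlier-flagged spots. In C2C12 they stood at 36 and 19, against 299 and 88 under normexp, 47 and 14 with the percentile over detected probes, 203 and 15 without outlier-flagged spots, 18 and 3 on the deposited table and 83 and 121 without AP20187 replicate 2. For AP20187 transgenic over wild type they stood at 4003 and 3068, against 3273 and 3825 over detected probes.

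The labels give the groups shared replicate numbers only, and deviations of same-numbered muscle arrays correlated at 0.04 to 0.14. With the replicate number as a block the counts were 5593 for AP20187 in transgenic muscle, 6428 for vehicle transgenic and 8108 for AP20187 transgenic over wild type, 102 in C2C12, 1783 for the difference and 11289 for wild type muscle over vehicle C2C12, and no call of the 7 genes changed. Slide row in C2C12, and slide or session between transgenic and wild type muscle, could not be fitted as blocks. In muscle the row block only set aside vehicle transgenic replicate 2, the only muscle array in its row. With 2 arrays a group, a change of the size of those of Bcat2 that misses the test is not shown to be absent.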

Other observations

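Some genes beside the 7 enzymes also differed between transgenic and wild type muscle. Of all 13543 genes, 38.3% passed the test there with vehicle and 52.2% with AP20187. The genes below were among those of smallest p in their lists. Aldh18a1, which starts proline synthesis from glutamate, read 2.47 and 2.38 in AP20187 transgenic muscle, 1.78 and 1.50 in vehicle transgenic muscle and -1.93 and -1.92 in wild type muscle, and in C2C12 1.60 and 1.71 with AP20187 and 1.24 and 1.34 with vehicle. Gnmt, the glycine N-methyltransferase gene, read 1.45 and 1.94 in AP20187 transgenic muscle, 2.10 and 2.27 in vehicle transgenic muscle and -1.01 and -0.44 in wild type muscle. Gamt, which makes creatine, read 2.47 and 2.42 in AP20187 transgenic muscle, 3.21 and 3.10 in vehicle transgenic muscle and 4.30 and 4.23 in wild type muscle, without overlap between the groups. Its log2 difference between AP20187 transgenic and wild type muscle was -1.82 (limma, adjusted p = 8.56e-06).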
